A study of Homo sapiens with 12 samples.

Results

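The genes described here are 38 genes of the integrated stress response and of amino acid supply, out of 23368 gene symbols in the count tables. They were taken as a list of symbols, with several tRNA synthetases in their older form (AARS, CARS, WARS, EPRS, GARS, MARS, NARS and SARS). The list holds 7 stress transcription factors, 8 stress effectors, 9 enzymes of amino acid synthesis and one-carbon metabolism, 5 amino acid transporters and 9 genes of tRNA charging and export. The study measured poly(A) RNA in SUDHL6 cells, an established human diffuse large B-cell lymphoma line of germinal centre type. GSK591 is an inhibitor of PRMT5, the enzyme that adds symmetric dimethyl marks to arginines of histones and splicing proteins. The 4 groups were vehicle (DMSO) for 24 h, 200 nM GSK591 for 24 h, vehicle for 96 h and 200 nM GSK591 for 96 h, with 3 libraries each. All groups share the same line, with no genetic change named in the labels, and the same RPMI medium with serum and added glutamine, so the model is 1 line in culture. Nothing in the labels says that the 3 libraries of a group came from separate cultures, and the p-values below measure the spread between these libraries, which may be technical.

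In the integrated stress response, kinases that sense amino acid shortage, misfolded protein in the endoplasmic reticulum, double-stranded RNA or haem shortage phosphorylate the initiation factor eIF2. General translation then slows, while the ATF4 message is translated more through its upstream open reading frames, and ATF4 with C/EBP partners switches on genes that make, import and charge amino acids. Because much of this control acts on ATF4 translation, the amount of ATF4 mRNA does not report the amount of ATF4 protein, and protein was not measured here. Fast-dividing B cells use large amounts of serine, glutamine and one-carbon units for nucleotide and protein synthesis.

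ATF4 is known to bind a composite C/EBP-ATF element, and promoters of the list were searched for it to show where the letters lie in genes whose mRNA is described below. The letters searched were TGATGNAAN on both strands of the 250 bases upstream of the RefSeq start (GRCh38.p14, another build than the one the counts used). Of the 38 genes, 32 had a promoter entry, and 4 of these 32 (12.5%) held the element, against 3.13% of all 35116 promoters in the table. The list was drawn up around ATF4 targets, so a higher share of the element than in all promoters is no independent result. For each listed gene 1 window was searched, while the 35116 are all promoter entries, not limited to the genes tested here. The 4 were ATF3, CHAC1, ASNS and AARS. The stricter letters TGATGCAA, which lie inside the same element, were in 2 of the 32 (6.25%), CHAC1 and AARS, against 0.772% of all promoters. The 3 promoters below are those of the genes with the element that were lower under GSK591 at 96 h. Capitals mark the element, and in CHAC1 it lies on the opposite strand and appears as its reverse complement. The ATF3 window is chr1:212565157-212565406 on the plus strand, with the element starting 191 bases before the gene's start. The CHAC1 window is chr15:40953221-40953470 on the plus strand, with the element 210 bases before the start. The ASNS window is chr7:97872409-97872658 on the minus strand, with the element 68 bases before the start.
ATF3: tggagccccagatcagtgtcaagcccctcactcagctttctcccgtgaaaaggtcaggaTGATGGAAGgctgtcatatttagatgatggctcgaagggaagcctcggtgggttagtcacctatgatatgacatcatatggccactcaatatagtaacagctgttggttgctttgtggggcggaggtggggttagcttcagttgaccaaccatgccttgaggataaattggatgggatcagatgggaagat
CHAC1: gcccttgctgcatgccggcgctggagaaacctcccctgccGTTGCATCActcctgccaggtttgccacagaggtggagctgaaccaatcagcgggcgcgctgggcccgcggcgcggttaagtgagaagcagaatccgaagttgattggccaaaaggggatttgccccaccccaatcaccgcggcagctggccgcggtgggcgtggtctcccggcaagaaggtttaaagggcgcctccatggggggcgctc
ASNS: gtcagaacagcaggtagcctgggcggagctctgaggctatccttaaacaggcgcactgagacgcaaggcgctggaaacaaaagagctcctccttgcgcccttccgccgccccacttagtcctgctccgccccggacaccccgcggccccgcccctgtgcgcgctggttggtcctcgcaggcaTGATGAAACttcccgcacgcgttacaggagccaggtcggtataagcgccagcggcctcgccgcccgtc
The AARS element, 188 bases before that gene's start on the opposite strand, is shown in its 29-base surroundings at chr16:70289676-70289704 on the minus strand, since AARS is the gene of the 4 whose mRNA did not pass the test at 96 h.
AARS: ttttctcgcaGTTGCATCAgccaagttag
The CCAAT box, known for binding NF-Y, was in 16 of the 32 windows (50%, against 32% of all promoters). The NRF2-type letters TGACNNNGC were in 5 of 32 (15.6%, against 10.9%), and the MYC-type E-box CACGTG was in 3 (9.38%, against 6.34%), namely ATF4, ALDH18A1 and SLC7A5. Each match describes letters in a window and not a bound site.

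The libraries held 48477456 to 64363186 counted reads in 11 cases, and vehicle 96 h replicate 1 held 547893015. All 7 B-cell markers looked at were present in every library at 159 CPM (read counts relative to the TMM-scaled library size) or more. The 14 markers of other cells (epithelium, fibroblasts, T cells, the myeloid lineage) summed to 0.420 to 0.628 CPM in vehicle and 0.553 to 0.595 CPM under GSK591 at 24 h, and to 0.426 to 1.24 CPM and 1.61 to 2.85 CPM at 96 h. CD3D, DCN and KRT19 had 0 counts in all 12 libraries. The spread between libraries was wider at 96 h (biological coefficient of variation 8.19%) than at 24 h (2.35%). The 96 h libraries numbered 2 stood apart over all genes as well as for the genes described here. Over all genes, library pairs with number 2 had a chi-square per degree of freedom of 16.6 to 39.8 at 96 h. The pair without it had 2.97 in vehicle and 9.12 under GSK591. Vehicle 96 h replicate 2 was the highest of its group for 33 of the 36 tested genes (91.7%, against 46.1% of all genes), and GSK591 96 h replicate 2 was the highest of its group for 24 of 36 (66.7%, against 41.2%). The count over the 36 genes at 96 h is therefore given with and without these libraries. Counts of the sub-groups and of the further lists are given only with them.

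Of the 38 genes, 36 had enough counts to be tested in every comparison. NUPR1, a stress-induced chromatin protein, had 0 counts in all 12 libraries, and 3 counts would have been at most 0.0615 CPM in any of them. STC2, a secreted stress glycoprotein, had 16 counts over the 12 libraries, of which 11 were in 1 library. A gene is called below when its adjusted p in edgeR's quasi-likelihood test with Benjamini-Hochberg adjustment over all tested genes is below 0.05, and fold changes are log2 of GSK591 over vehicle unless another comparison is named. Fell and rose mean lower and higher under GSK591 than in vehicle of the same time, unless a change with time is named. In bulk RNA, fewer cells of a state and less RNA per cell cannot be told apart.

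After 96 h of GSK591, 21 of the 36 tested genes were lower than in the vehicle of that time and 0 were higher. Of all genes tested 19.6% were lower and 20.7% higher (40.2% in either direction). Over the 36 the median log2 fold change was -0.38 (range -1.42 to 0.01), against a median of 0.00 over all genes. In 28 of the 36 every GSK591 value lay below every vehicle value, which held for 29.7% of all genes, and in 0 every value lay above (25% of all genes). The calls by sub-group were 3 of 6 transcription factors, 4 of 7 effectors, 8 of 9 enzymes, 3 of 5 transporters and 3 of 9 tRNA genes. The share of the tRNA genes (33.3%, all lower) was below the 40.2% of all genes called in either direction and above the 19.6% called lower. Without both libraries numbered 2, 27 of 36 were lower and 0 higher, while over all genes 30.2% were lower and 30.2% higher in that fit. At an unadjusted p below 0.05, for which no share over all genes is given, 27 were lower and 0 higher. DESeq2 called 24 lower and 0 higher, while over all genes it called 20.1% lower and 21.6% higher. The summed level of the 14 markers of other cell types was higher in the GSK591 libraries of this time, as given above, at 2.85 CPM at most. Only 2 of the 14 had enough counts to be tested, with 1 called higher and 0 lower. The highest group means among the 14 were 0.864 CPM for CD14 and 0.723 CPM for COL1A1. Of the 7 B-cell markers 3 were called higher and 0 lower. The part of these markers in the values of the 36 genes was not tested.

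**Figure D1:**
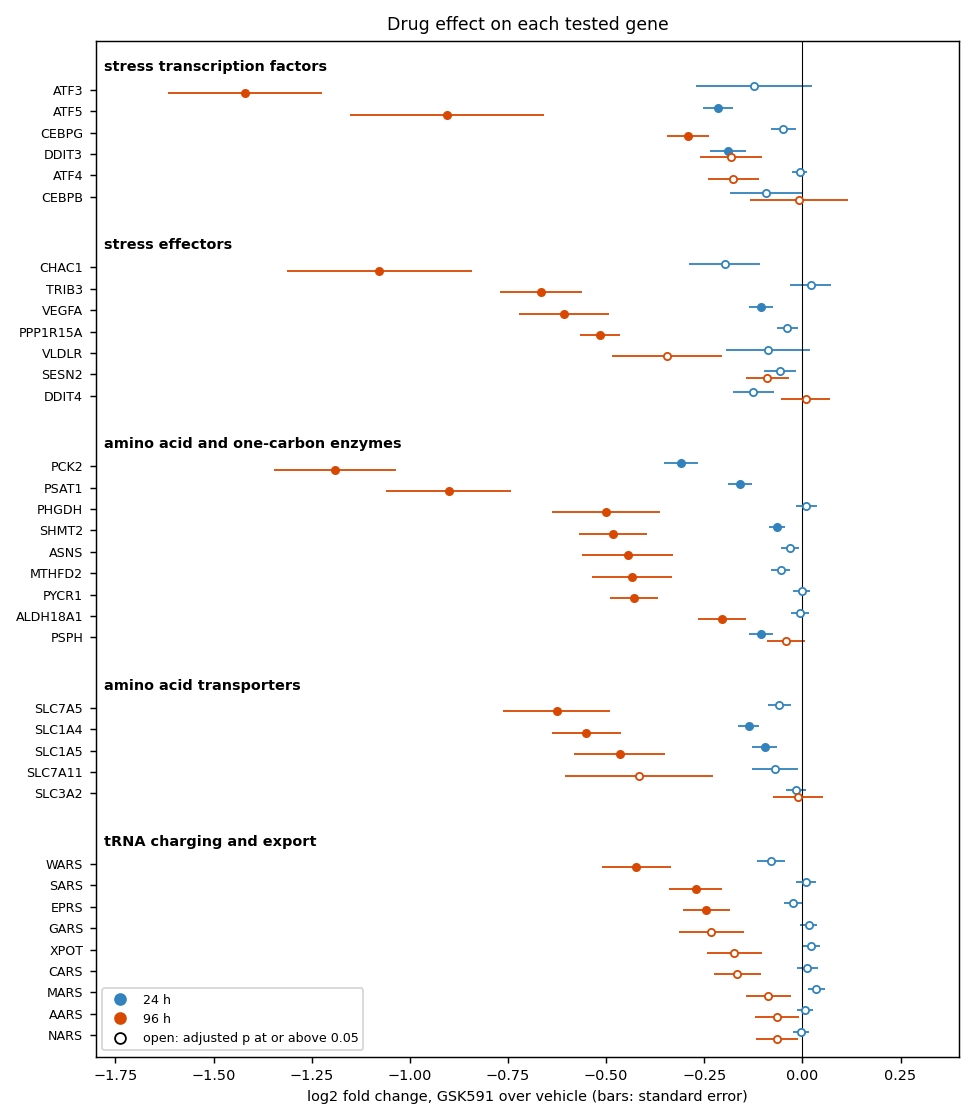
Log2 fold change of GSK591 over vehicle for the 36 tested genes at 24 h and 96 h, with standard errors, ordered by sub-group (n = 3 libraries a group). Open points did not pass the test. The 96 h points lie below the 24 h points for most genes and reach -1.42 in ATF3, while the 24 h points stay between -0.31 and 0.04.

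Among the transcription factors, ATF3, a stress-induced bZIP factor, fell the furthest. Its levels at 96 h were 2.64, 3.85 and 3.14 CPM in vehicle and 0.983, 1.40 and 1.09 CPM under GSK591, so that the groups did not overlap, at a level of only a few CPM. The log2 fold change was -1.42 ± 0.20 (SE; adjusted p = 0.00154), and it was -1.41 ± 0.15 without both libraries numbered 2. ATF5, a factor related to ATF4 and translated by the same upstream reading frame mechanism, had 150, 230 and 153 CPM in vehicle and 66.7, 131 and 82.9 CPM under GSK591. Its groups also did not overlap, with replicate 2 the highest in both, and it fell by 0.91 ± 0.25 on the log2 scale (adjusted p = 0.0191). CEBPG, a C/EBP family partner of ATF4, went from a mean of 58.4 ± 2.75 CPM to 47.2 ± 0.919 CPM (SD, n = 3), a log2 fold change of -0.29 ± 0.05 (adjusted p = 0.00403).

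ATF4 mRNA itself was close to the threshold at 96 h. It was at 477, 543 and 470 CPM in vehicle and at 426, 431 and 450 CPM under GSK591. All 3 treated values were lower, but the log2 fold change of -0.18 ± 0.07 did not pass the test (adjusted p = 0.0587), and without both libraries numbered 2 it was -0.11 ± 0.04 (adjusted p = 0.0394). ATF4 was called in 7 of the 14 alternatives run, with adjusted p-values from 0.00518 to 0.144 and all changes below 0. DDIT3, which encodes the pro-apoptotic factor CHOP, had a log2 fold change of -0.18 ± 0.08 at 96 h (adjusted p = 0.0954). CEBPB, another C/EBP factor of the response, had -0.01 (adjusted p = 0.963).

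**Figure D2:**
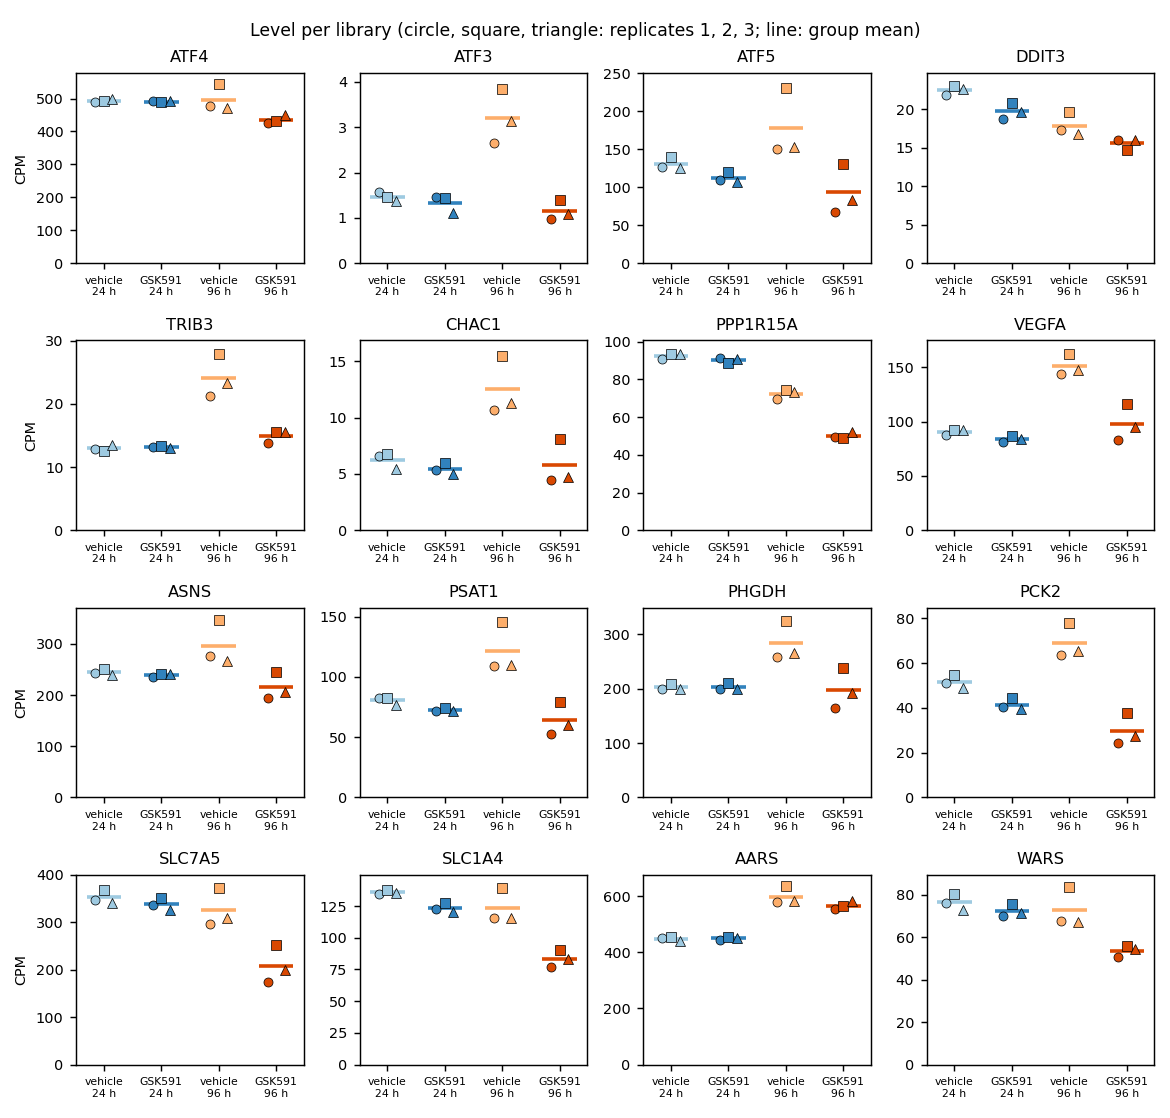
Level in CPM in each of the 12 libraries for genes of each sub-group, with circle, square and triangle for replicates 1, 2 and 3 and the group mean as a line. In TRIB3, CHAC1, PSAT1, PHGDH and PCK2 vehicle at 96 h is the highest group, with replicate 2 on top, while PPP1R15A falls from 24 h to 96 h in both arms.

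Among the effectors, CHAC1, TRIB3, VEGFA and PPP1R15A were lower under GSK591 than in vehicle at 96 h. CHAC1, which breaks down glutathione, was at 10.7, 15.5 and 11.3 CPM in vehicle and at 4.45, 8.13 and 4.73 CPM under GSK591. The treated values were all below the vehicle values, with replicate 2 the highest in each group, and the log2 fold change was -1.08 ± 0.24 (adjusted p = 0.00803). TRIB3, a pseudokinase that restrains ATF4 and AKT signalling, was at 21.3, 27.9 and 23.3 CPM in vehicle and at 13.9, 15.6 and 15.5 CPM under GSK591. Its treated values were close together and clear of the vehicle values, and it fell by 0.67 ± 0.10 on the log2 scale (adjusted p = 0.00241). VEGFA, the angiogenic growth factor, was at 144, 163 and 148 CPM against 83.1, 116 and 95.2 CPM, a log2 fold change of -0.61 ± 0.11 (adjusted p = 0.00448).

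PPP1R15A encodes GADD34, which brings a phosphatase to eIF2 and so ends the response. It was at 69.7, 74.1 and 73.4 CPM in vehicle and at 49.3, 49.0 and 52.1 CPM under GSK591, with close replicates and no overlap. The log2 fold change was -0.52 ± 0.05 (adjusted p = 0.000464). The other 3 tested effectors did not pass the test at 96 h. DDIT4 (REDD1, an mTORC1 inhibitor) had a log2 fold change of 0.01 (adjusted p = 0.923), SESN2, a leucine sensor that restrains mTORC1, had -0.09 (adjusted p = 0.212), and VLDLR, a lipoprotein receptor, had -0.34 ± 0.14 (adjusted p = 0.0771).

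The enzymes gave the fullest set of calls, 8 of 9 at 96 h. PCK2, the mitochondrial phosphoenolpyruvate carboxykinase, had 63.7, 78.1 and 65.6 CPM in vehicle and 24.4, 37.9 and 27.3 CPM under GSK591. The groups did not overlap, and the log2 fold change was -1.19 ± 0.15 (adjusted p = 0.00125). PSAT1, the aminotransferase of serine synthesis, had 109, 145 and 110 CPM against 52.8, 79.5 and 60.1 CPM. It fell by 0.90 ± 0.16 on the log2 scale (adjusted p = 0.00354), with replicate 2 the highest in each group. PHGDH, which starts serine synthesis, had 259, 325 and 267 CPM against 164, 239 and 191 CPM, and its log2 fold change was -0.50 ± 0.14 (adjusted p = 0.0196). PSPH, the phosphatase that completes serine synthesis, was the enzyme without a call, at a mean of 71.4 ± 2.37 CPM in vehicle and 68.7 ± 1.98 CPM under GSK591 (SD, n = 3; log2 fold change -0.04, adjusted p = 0.523).

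Genes of mitochondrial one-carbon metabolism and of proline and asparagine synthesis also fell. SHMT2, which turns serine into glycine and a one-carbon unit in mitochondria, was at 367, 426 and 391 CPM in vehicle and at 252, 308 and 278 CPM under GSK591. The groups did not overlap, and the log2 fold change was -0.48 ± 0.09 (adjusted p = 0.00366). MTHFD2, the mitochondrial methylene-folate dehydrogenase, fell by 0.43 ± 0.10 on the log2 scale (adjusted p = 0.0107). PYCR1 and ALDH18A1, both of proline synthesis, fell by 0.43 ± 0.06 (adjusted p = 0.00175) and by 0.20 ± 0.06 (adjusted p = 0.0265) on the log2 scale. ASNS, asparagine synthetase, was at 277, 346 and 268 CPM in vehicle and at 195, 245 and 206 CPM under GSK591. Every treated value was lower than every vehicle value, and the log2 fold change was -0.45 ± 0.12 (adjusted p = 0.0158).

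Of the transporters, SLC7A5, SLC1A4 and SLC1A5 fell at 96 h. SLC7A5, the light chain of the LAT1 exchanger of large neutral amino acids, was at 297, 372 and 310 CPM in vehicle and at 174, 253 and 200 CPM under GSK591. The groups did not overlap and the log2 fold change was -0.63 ± 0.14 (adjusted p = 0.00782). SLC3A2, the heavy chain that carries both LAT1 and the cystine exchanger to the cell surface, had a mean of 166 ± 14.0 CPM in vehicle and 163 ± 2.34 CPM under GSK591 (SD, n = 3), with a log2 fold change of -0.01 ± 0.06 (adjusted p = 0.900). SLC1A4 and SLC1A5, exchangers of small neutral amino acids and glutamine, fell by 0.55 ± 0.09 (adjusted p = 0.0026) and by 0.47 ± 0.12 (adjusted p = 0.0137) on the log2 scale.

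The call of SLC7A11, the cystine-glutamate exchanger, depended on 1 library and on the fit. It was at 16.5, 18.5 and 16.3 CPM in vehicle and at 10.5, 17.2 and 10.0 CPM under GSK591, so that treated replicate 2 lay within the vehicle range and the other two treated libraries lay well below it. The log2 fold change was -0.42 ± 0.19 (adjusted p = 0.108) with all libraries and -0.73 ± 0.08 (adjusted p = 0.000144) without GSK591 96 h replicate 2. With all 12 libraries in 1 fit it was -0.43 ± 0.15 (adjusted p = 0.0251), and SLC7A11 was called in 4 of 14 alternatives.

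Of the 9 genes of tRNA charging and export, 3 fell and 0 rose at 96 h (33.3% called). Of all genes 19.6% fell and 40.2% were called in either direction. In 7 of the 9 every GSK591 value lay below every vehicle value, which held for 29.7% of all genes. WARS, EPRS and SARS, the synthetases for tryptophan, for glutamate and proline, and for serine, fell by 0.42 ± 0.09 (adjusted p = 0.0065), 0.24 ± 0.06 (adjusted p = 0.0132) and 0.27 ± 0.07 (adjusted p = 0.0125) on the log2 scale. AARS, for alanine, was at 579, 634 and 582 CPM in vehicle and at 553, 564 and 583 CPM under GSK591. Its groups overlapped, and the log2 fold change was -0.06 ± 0.06 (adjusted p = 0.383). CARS, GARS and the tRNA exporter XPOT had log2 fold changes of -0.17 (adjusted p = 0.0522), -0.23 (adjusted p = 0.0517) and -0.17 (adjusted p = 0.0769). MARS and NARS had -0.09 (adjusted p = 0.255) and -0.06 (adjusted p = 0.362). The median over the 9 was -0.17, against -0.45 over the 9 enzymes, and the difference between these sub-groups was not tested.

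Of the 21 genes called at 96 h, 16 kept the call in every alternative run. The other 5 were ATF5, ASNS, PHGDH, ALDH18A1 and SLC1A5. Without vehicle 96 h replicate 2 their adjusted p-values were 0.0871, 0.0575, 0.0857, 0.0781 and 0.0605. Without GSK591 96 h replicate 3 they were 0.0743, 0.0628, 0.0709, 0.0835 and 0.0521, and without GSK591 96 h replicate 1 they were 0.0506, 0.0516, 0.0513 and 0.0815 for the first 4. In all of these the direction was the same. Of the 15 genes not called at 96 h, 7 (ATF4, CARS, DDIT3, GARS, SLC7A11, VLDLR and XPOT) were called lower in some alternative, CARS and GARS in 8 of 14 each.

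At 24 h the differences were small. Of the 36 tested genes 9 fell and 0 rose, while 7.29% of all genes fell and 7.44% rose (14.7% in either direction), and the median log2 fold change was -0.06 against -0.00 over all genes. At an unadjusted p below 0.05, for which no share over all genes is given, 13 were lower and 0 higher. DESeq2 called 8 lower and 0 higher, while over all genes it called 6.04% lower and 7.28% higher. In 10 genes every GSK591 value was below every vehicle value (16.2% of all genes), and in 1, MARS, every value was above (15.7% of all genes), with a log2 fold change of 0.04 that did not pass the test (adjusted p = 0.300). The 9 genes were 2 transcription factors, 1 effector, 4 enzymes and 2 transporters, and 0 tRNA genes. Of the 36 log2 fold changes 28 were below 0, but only 3 of the 9 tRNA genes were, with a median of 0.01.

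PCK2 fell the furthest at 24 h. It was at 51.0, 54.6 and 48.7 CPM in vehicle and at 40.3, 44.3 and 39.6 CPM under GSK591, without overlap, a log2 fold change of -0.31 ± 0.04 (adjusted p = 0.000117). ATF5 was at 127, 139 and 126 CPM against 110, 120 and 107 CPM, also without overlap, and fell by 0.21 ± 0.04 on the log2 scale (adjusted p = 0.000902). DDIT3 was at 21.9, 23.1 and 22.6 CPM against 18.8, 20.8 and 19.7 CPM, a log2 fold change of -0.19 ± 0.05 (adjusted p = 0.00871). These 3 were shifted in all treated libraries at a time when ATF4 mRNA was at 490, 492 and 498 CPM in vehicle and at 492, 489 and 491 CPM under GSK591 (log2 fold change -0.01 ± 0.02, adjusted p = 0.847).

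PSAT1 and SLC1A4 fell by 0.16 ± 0.03 (adjusted p = 0.00201) and by 0.14 ± 0.03 (adjusted p = 0.00198) on the log2 scale at 24 h. VEGFA, PSPH, SHMT2 and SLC1A5 were nearer the threshold, with log2 fold changes of -0.11, -0.11, -0.07 and -0.10 and adjusted p-values of 0.0239, 0.0222, 0.0397 and 0.0475. The 9 calls rest on the spread of the 6 libraries of that time. With all 12 libraries in 1 fit, which carries the wider 96 h spread, 0 genes of the list were called at 24 h by edgeR. At an unadjusted p below 0.05, for which no share over all genes is given, 3 of the list were lower and 0 higher. In that fit 29 of all 13665 genes were called at 24 h. In every other alternative ATF5, PCK2, PSAT1 and SLC1A4 kept the call. Without GSK591 24 h replicate 1, 4 of the genes were called, and without GSK591 24 h replicate 3 there were 5. Of all genes 3.84% and 3.81% were called lower in these fits, against 7.29% in the main fit.

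In the authors' deposited table, 10 of the genes at 24 h and 22 at 96 h had a false discovery rate below 0.05, all with negative log2 fold changes. The 2 that were not called here were MTHFD2 at 24 h (-0.07, 0.0442 in the authors' deposited table) and GARS at 96 h (-0.23, 0.0348 in the authors' deposited table).

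The effect at 96 h was larger than that at 24 h by a test of the difference itself. The log2 fold change at 96 h minus that at 24 h was below 0 and passed the test in 22 of the 36 genes and above 0 in 0, while 13.2% of all genes passed on the lower side and 11% on the higher (24.1% in all). At an unadjusted p below 0.05, for which no share over all genes is given, the counts were 26 and 0. DESeq2 gave 24 on the lower side and 0 on the higher, against 16.3% and 12.8% of all genes. The median difference was -0.33. ATF3 had the widest difference, -1.30 ± 0.26 (adjusted p = 0.0039), followed by PCK2 with -0.89 ± 0.18 (adjusted p = 0.00386) and CHAC1 with -0.88 ± 0.28 (adjusted p = 0.0373). The count fell to 12 without vehicle 24 h replicate 3 or without GSK591 24 h replicate 2, and to 14 without vehicle 24 h replicate 1 or without GSK591 96 h replicate 1. In these fits, in the same order, 8.38%, 7.88%, 8.88% and 9.22% of all genes passed on the lower side. The count was 27 without both 96 h libraries numbered 2, when 23.3% of all genes passed on the lower side. Over the alternatives run, 12 of the 22 genes kept the call in all, PCK2 and ATF3 among them. The other 10 were ALDH18A1, ASNS, CARS, CHAC1, EPRS, GARS, MTHFD2, PHGDH, SLC1A5 and WARS, and CHAC1 lost the call in 10 of 19.

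The levels in the vehicle libraries differed between the times as well. From 24 h to 96 h in vehicle, 19 of the 36 genes rose and 6 fell, while 24.2% of all genes rose and 23.5% fell (47.7% in all), with a median log2 change of 0.27 against 0.01 over all genes. In 20 genes every 96 h vehicle value was above every 24 h value (30.8% of all genes), and in 6 every value was below (30.3%). Without vehicle 96 h replicate 2, 16 of the 36 genes rose and 8 fell, while 23.7% of all genes rose and 24.6% fell. The vehicle comparison and the effect of GSK591 at 96 h share the vehicle libraries of 96 h, and the values are given side by side for that reason. Time in culture, harvest and any processing run of each time cannot be told apart.

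**Figure D3:**
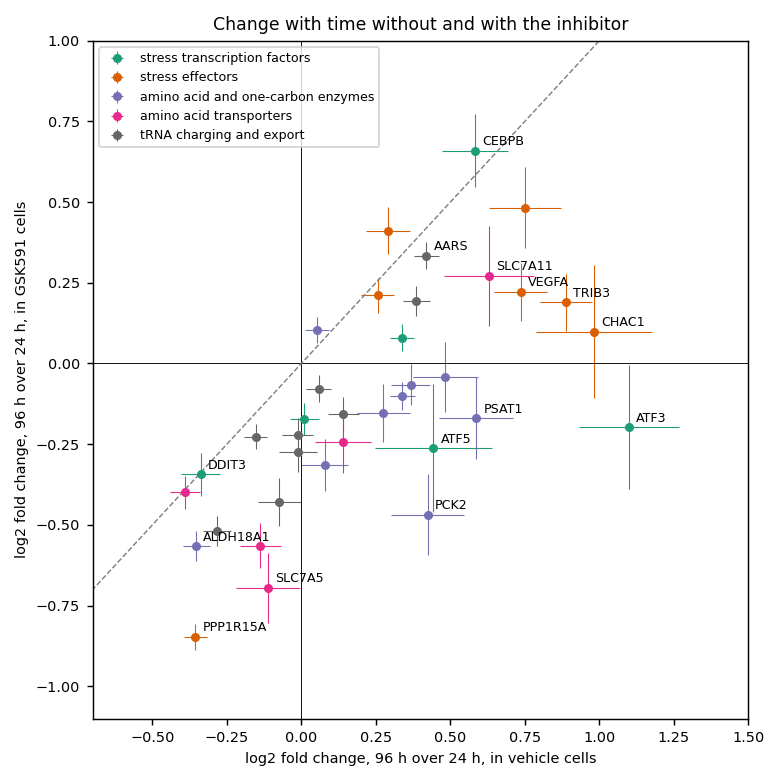
Log2 change from 24 h to 96 h in vehicle (x axis) and under GSK591 (y axis) for the 36 tested genes, coloured by sub-group, with a dashed line of equal change. Most points lie below the line, and ATF3, TRIB3 and CHAC1 lie far to the right at 0.89 to 1.10 in vehicle with 0.19 or less under GSK591.

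The changes below are also those from 24 h to 96 h. In vehicle ATF3 rose by 1.10 ± 0.17 (adjusted p = 0.000121), CHAC1 by 0.98 ± 0.19 (adjusted p = 0.000944) and TRIB3 by 0.89 ± 0.09 (adjusted p = 3.11e-06) on the log2 scale. Under GSK591 the same 3 genes had changes of -0.20 ± 0.19 (adjusted p = 0.377), 0.10 (adjusted p = 0.688) and 0.19 ± 0.09 (adjusted p = 0.0703). TRIB3 was thus at 12.5 to 13.5 CPM in vehicle and 13.0 to 13.3 CPM under GSK591 at 24 h, at 21.3 to 27.9 CPM in vehicle at 96 h, and at 13.9 to 15.6 CPM under GSK591 at 96 h. VEGFA rose by 0.74 ± 0.09 (adjusted p = 1.89e-05), PSAT1 by 0.59 (adjusted p = 0.00161), PHGDH by 0.48 (adjusted p = 0.00212) and SHMT2 by 0.37 (adjusted p = 0.00036) in vehicle. Under GSK591 their changes were 0.22 ± 0.09 (adjusted p = 0.0413), -0.17 (adjusted p = 0.248), -0.04 (adjusted p = 0.745) and -0.07 (adjusted p = 0.381).

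For other genes the changes from 24 h to 96 h in both arms are given side by side. AARS rose by 0.42 in vehicle (adjusted p = 3.58e-06) and by 0.33 under GSK591 (adjusted p = 7.2e-06), and CEBPB rose by 0.58 ± 0.11 (adjusted p = 0.000698) and by 0.66 ± 0.11 (adjusted p = 0.000144). SLC3A2 fell by 0.39 (adjusted p = 3.69e-05) and by 0.40 (adjusted p = 1.1e-05) on the log2 scale, and DDIT3 fell by 0.34 in each (adjusted p = 0.000795 in vehicle and 0.000422 under GSK591). PPP1R15A fell by 0.36 ± 0.04 in vehicle (adjusted p = 8.19e-06) and by 0.85 ± 0.04 under GSK591 (adjusted p = 2.72e-09). SLC7A5 had a change of -0.11 in vehicle (adjusted p = 0.408) and fell by 0.70 under GSK591 (adjusted p = 5.82e-05). Under GSK591, a comparison added after the data had been seen, 8 of the 36 genes rose and 16 fell from 24 h to 96 h, beside 34.5% and 32.3% of all genes (66.7% in all, the same share as of the 36), with a median of -0.16 against 0.03 over all genes. With library size alone as the scaling the split was 10 higher and 13 lower (42.3% and 25.3% of all genes). Without GSK591 96 h replicate 2 it was 7 higher and 23 lower (35.9% and 34.2% of all genes). With the replicate block it was 9 and 19 (35.6% and 33.5% of all genes). In 9 genes every 96 h value under GSK591 was above every 24 h value (34.4% of all genes) and in 16 below (33.6%).

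**Figure D4:**
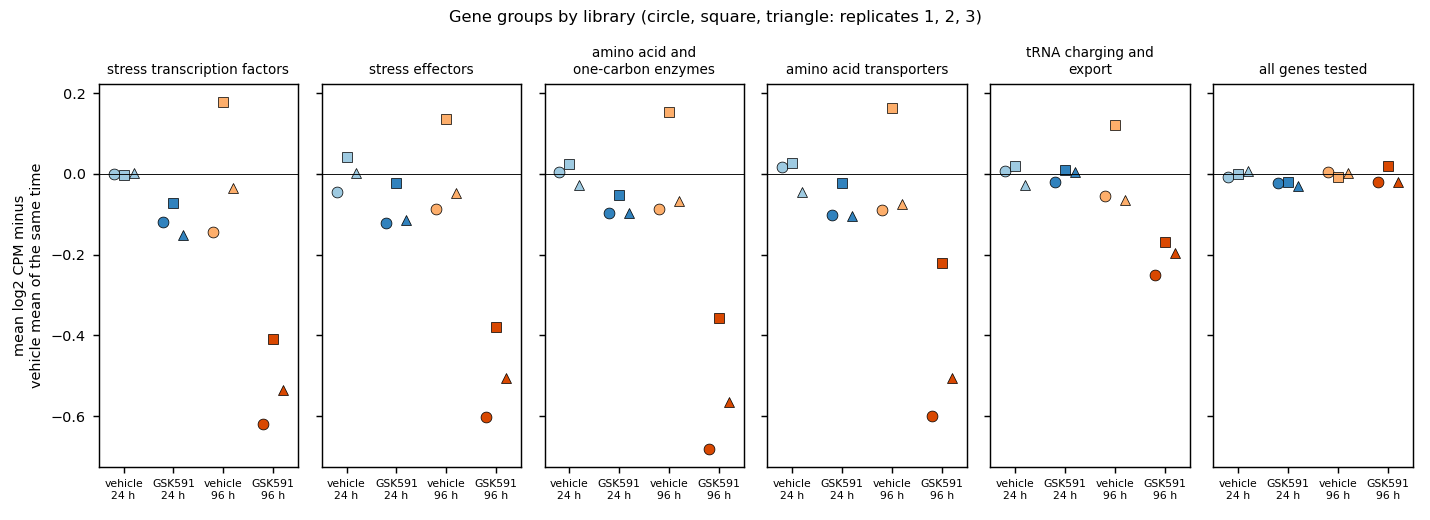
Mean log2 CPM of each sub-group in every library, relative to the vehicle mean of the same time, with 1 point a library (circle, square and triangle for replicates 1, 2 and 3) and all genes tested in the last panel. Vehicle replicate 2 is the highest vehicle library at 96 h in each sub-group, and all 3 GSK591 libraries of 96 h lie below all 3 vehicle libraries.

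Over all 36 genes the mean log2 CPM at 96 h relative to the vehicle mean was -0.09, 0.15 and -0.06 in the vehicle libraries and -0.54, -0.30 and -0.45 in the GSK591 libraries. Vehicle replicate 2 was the highest and GSK591 replicate 2 the highest of the treated libraries, and the groups did not overlap. At 24 h the GSK591 libraries lay at -0.09, -0.03 and -0.08. Without both libraries numbered 2 the log2 fold change at 96 h was -1.32 ± 0.05 for PCK2, -1.24 ± 0.08 for CHAC1, -1.02 ± 0.07 for ATF5, -0.95 ± 0.05 for PSAT1 and -0.58 ± 0.07 for TRIB3.

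Upstream of ATF4 are the eIF2 kinases and eIF2B, the exchange factor that phosphorylated eIF2 blocks. For this and the further lists the shares of all genes to read the counts against are 20.7% higher and 19.6% lower at 96 h and 7.44% higher and 7.29% lower at 24 h. Of 12 tested genes in this list, 4 were higher and 2 lower at 96 h (50% called, against 40.2% of all genes), and 3 were higher and 0 lower at 24 h (25%, against 14.7%). EIF2AK3, which encodes PERK, the kinase of endoplasmic reticulum stress, was at 161, 147 and 162 CPM in vehicle and 177, 167 and 181 CPM under GSK591 at 24 h, and at 167, 157 and 163 CPM against 248, 194 and 234 CPM at 96 h. The groups did not overlap at either time. It rose by 0.16 ± 0.03 (adjusted p = 0.00426) and by 0.49 ± 0.08 (adjusted p = 0.00296) on the log2 scale, and the difference between the times was 0.32 (adjusted p = 0.0379). EIF2AK4, which encodes GCN2, the kinase that senses uncharged tRNA, rose by 0.32 ± 0.07 at 96 h (adjusted p = 0.0103) and had -0.01 at 24 h. EIF2AK1 and EIF2AK2, for haem and double-stranded RNA, had -0.05 (adjusted p = 0.547) and 0.04 (adjusted p = 0.724) at 96 h. EIF2B2 fell by 0.60 ± 0.06 (adjusted p = 0.000506) while EIF2B4 rose by 0.55 ± 0.08 (adjusted p = 0.00161), although both are subunits of one complex.

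Further genes of amino acid supply were also counted. Of 21 other enzymes of amino acid and one-carbon metabolism, 15 fell and 1 rose at 96 h (76.2% called, against 40.2% of all genes), and at 24 h 8 of 20 fell and 1 rose (45%, against 14.7%). GOT1, the cytosolic aspartate aminotransferase, fell by 0.46 ± 0.05 at 96 h (adjusted p = 0.000682). Of 13 other amino acid transporters, 6 fell and 2 rose at 96 h (61.5% called, against 40.2% of all genes), and 1 fell and 3 rose at 24 h (30.8%, against 14.7%). SLC25A13, a mitochondrial aspartate-glutamate carrier, and SLC38A5, a glutamine transporter, fell by 0.32 and 0.36 on the log2 scale at 96 h, while SLC7A6 rose by 0.16 at 24 h (adjusted p = 0.000124).

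Among the other cytosolic tRNA synthetases, 5 of 12 fell and 1 rose at 96 h (50% called, against 40.2% of all genes), with QARS and VARS falling by 0.36 and 0.32 on the log2 scale. At 24 h 2 of the 12 rose and 0 fell (16.7%, against 14.7%), and HARS rose by 0.13 ± 0.03 (adjusted p = 0.00354). Of the 17 mitochondrial synthetases, 6 fell and 0 rose at 96 h (35.3% called, near the 40.2% of all genes), and 4 fell and 0 rose at 24 h (23.5%, against 14.7%). MARS2, for methionine, fell by 0.40 on the log2 scale at 96 h (adjusted p = 0.00186).

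Lists of neighbouring stress programmes were counted in the same way. Of 15 genes of the endoplasmic reticulum stress arms, 6 fell and 3 rose at 96 h (60% called, against 40.2% of all genes), and 4 fell and 2 rose at 24 h (40%, against 14.7%). XBP1, the factor of the IRE1 arm, was at 15.3, 18.6 and 15.8 CPM in vehicle and at 5.80, 7.93 and 6.97 CPM under GSK591 at 96 h, a fall of 1.24 ± 0.13 (adjusted p = 0.00055). EDEM1, which helps to clear misfolded glycoproteins, rose by 0.42 (adjusted p = 0.00154), and HSPA5, the chaperone BiP, fell by 0.15 ± 0.02 at 24 h (adjusted p = 9.34e-05). Of 13 NRF2 targets, 5 fell and 0 rose at 96 h (38.5% called, near the 40.2% of all genes), among them TALDO1 (-0.55) and PGD (-0.41) of the pentose phosphate pathway. At 24 h 0 of the 13 were called, and the smallest p was that of FTH1, ferritin heavy chain (log2 fold change -0.07).

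Of 19 genes of amino acid sensing by mTORC1, 2 rose and 1 fell at 96 h (15.8% called, below the 40.2% of all genes), and 0 were called at 24 h. As single genes, FNIP1, a partner of folliculin, rose by 0.61 ± 0.07 at 96 h (adjusted p = 0.000746) and had 0.12 at 24 h (adjusted p = 0.0536). EIF4EBP1, the translation repressor that mTORC1 switches off, fell by 0.53 ± 0.09 (adjusted p = 0.00267). MYC, of which several members are known targets, was at 320, 374 and 329 CPM in vehicle and at 225, 277 and 251 CPM under GSK591 at 96 h. It fell by 0.43 ± 0.09 on the log2 scale (adjusted p = 0.00652) and had 0.05 at 24 h (adjusted p = 0.186), and its part in the values of the 38 genes was not tested.

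Some counts may hold reads of other genes. By RefSeq, 17 of the 38 genes overlap another annotated gene, DDIT3 and MARS among them, which overlap each other, and no strand setting for the counting was found in the labels or notes. By symbol, 12 of the 38 have pseudogene copies, among them ATF4, ASNS, PSAT1, MTHFD2 and SLC7A5, and how the counting treated reads shared with these copies is not stated either.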

How the data were processed

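RNA of 12 SUDHL6 libraries, 3 in each of 4 groups set by the labels, was analysed from the gene counts that the authors deposited in 1 table for each time. Per the submitters' processing notes the tools were STAR, HTSeq and edgeR with hg19 (GRCh37), with no version, annotation or strand setting found in the sources. Deposited beside the counts were the authors' log2 fold changes and p-values with false discovery rates, quoted only where named.

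GSK591 was compared with vehicle in the 6 libraries of each time with edgeR 4.0.16 in R 4.3.3 (TMM scaling, filterByExpr, quasi-likelihood test, Benjamini-Hochberg adjustment over all genes tested), using limma 3.58.1 as its base. The difference of the effects and the changes with time came from 1 fit of all 12 libraries with 4 group means. The change under GSK591 with time was added after the data had been seen. CPM values use TMM scaling over the 12 libraries, and log2 CPM in the plot of sub-groups a prior count of 2. The fits were tested on simulated data. Alternatives were DESeq2 1.42.0, library size alone, no filter, at least 5 CPM in 3 samples, a replicate block, all 12 libraries in 1 fit, thinning of the deep vehicle library, leaving out each library and leaving out both 96 h libraries numbered 2. The depth of at least 48477456 counts limits the precision mainly for genes of a few CPM. Within groups, library pairs differed by more than sampling noise (chi-square per degree of freedom 2.20 to 39.8 over 12 pairs). The highest values were those of the 96 h pairs with number 2. Each library was taken as 1 sample, and this spread does not show whether the libraries came from separate cultures.

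The 38 genes, the sub-groups and the further lists were chosen with earlier results of these data known. From each further list, the genes named are the 2 with the smallest p at 96 h and the 1 with the smallest p at 24 h, with all 4 eIF2 kinases and MYC; a few genes that this rule names are not reported here. Promoters are from RefSeq (GRCh38.p14), with 32 of 38 genes matched. Printed are those of genes called at 96 h that hold the composite element, and the surroundings of the element in AARS were added after its values were seen.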

Additional observations from a re-analysis of the deposited data

Results flagged for a closer look

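In 22 genes the log2 fold change of GSK591 over vehicle at 96 h minus that at 24 h passed the test of the difference between the times (edgeR's quasi-likelihood test with Benjamini-Hochberg adjustment), each time below 0. Among the transcription factors the difference was -1.30 in ATF3 and -0.26 in CEBPG. Among the effectors it was -0.88 in CHAC1, -0.70 in TRIB3, -0.51 in VEGFA and -0.49 in PPP1R15A. Among the enzymes it was -0.89 in PCK2, -0.76 in PSAT1, -0.53 in PHGDH, -0.44 in PYCR1, -0.43 in ASNS, -0.43 in SHMT2, -0.39 in MTHFD2 and -0.21 in ALDH18A1. Among the transporters it was -0.58 in SLC7A5, -0.43 in SLC1A4 and -0.38 in SLC1A5. Among the tRNA charging genes it was -0.36 in WARS, -0.30 in SARS, -0.26 in GARS, -0.23 in EPRS and -0.19 in CARS. CARS (adjusted p = 0.0449) and GARS (adjusted p = 0.049) were nearest the threshold together with SLC1A5 (adjusted p = 0.048), and CARS and GARS each lost the call in 12 of 19 alternatives. The vehicle libraries of the 2 times enter each of these values.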

How the results depend on the processing

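In every fit run, 0 genes of the list were called higher at 24 h, at 96 h or for the difference of the effects, and no value that was called changed sign. At 24 h the count of 9 was 0 with all 12 libraries in 1 fit, 13 with the replicate block and 4 to 12 with single libraries left out. Of all genes 0.102%, 10.4% and 3.81% to 8.20% were called lower in these fits, against 7.29% in the main fit. At 96 h the count of 21 was 28 with all 12 libraries in 1 fit, 27 with the replicate block (SLC7A11 then had an adjusted p of 0.013) and 16 to 27 with single libraries left out. For the difference of the effects the count of 22 was 24 with the replicate block and 12 to 27 with single libraries left out, and only 12 genes kept the call in every alternative. Of all genes 16.9% passed on the lower side with the block and 7.88% to 21.3% with single libraries left out, against 13.2% in the main fit. The count in vehicle over time (25) ranged from 22 to 27 and that under GSK591 over time (24) from 20 to 30 with single libraries left out. In these fits 18.0% to 29.8% of all genes rose and 18.5% to 28.5% fell with time in vehicle. Under GSK591 30.9% to 35.9% of all genes rose and 29.3% to 34.2% fell with time. The main fits did not pair the samples by replicate number. Deviations of same-numbered vehicle and GSK591 libraries correlated at 0.00502 to 0.105 at 24 h, where 2 of 6 libraries correlated best with their own number. At 96 h 4 of 6 did, with correlations of 0.269, 0.245 and 0.00851 for numbers 1, 2 and 3. Across numbers, vehicle 1 with GSK591 2 had -0.185, vehicle 2 with GSK591 1 had -0.333 and vehicle 3 with GSK591 1 had 0.222. Whether same-numbered libraries of 96 h shared a batch was not tested. Over all genes, the 96 h count of 5437 was 8201 without both libraries numbered 2, 3507 without vehicle replicate 2 and 3438 without GSK591 replicate 1. A library left out leaves 2 in its group, and NUPR1 and STC2 had too few counts to be tested.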
